A study of Mus musculus with 4 samples.

Results

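The insulin-like growth factor axis was described here through 10 genes, the ligands *Igf1* and *Igf2*, the receptors *Igf1r* and *Igf2r*, and 6 binding proteins, *Igfbp2*, *Igfbp3*, *Igfbp4*, *Igfbp5*, *Igfbp6* and *Igfbp7*. They were chosen by gene symbol, and all 10 were found among the 32285 genes of the count files. The data were spatial transcriptomes of 4 brain sections from Nf1+/- mice, which carry 1 mutant copy of *Nf1* in every cell, on a C57/BL6 background. No treatment was recorded for the tissue, the labels give no age and leave unstated whether each section is from a different mouse, and no wild-type section was analysed here. The sections, numbered 1 to 4 only as names, were fresh frozen, cut at 10 µm and placed on Visium slides, where each barcoded spot captures mRNA from the few cells above it. Comparisons were therefore made between kinds of spots within the sections, n counts sections, and p-values measure the spread between sections only.

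Insulin-like growth factors are small secreted proteins related to insulin that promote growth and survival of cells. IGF1R is the tyrosine kinase receptor that carries the signal of both ligands, whereas IGF2R, which is also the mannose 6-phosphate receptor, takes up IGF2 for degradation in lysosomes. Binding proteins hold the ligands outside cells and either withhold or deliver them, and in the adult rodent brain the meninges and the choroid plexus, the secretory epithelium of the ventricles, are the known places of *Igf2* synthesis.

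The 120 bases before each annotated transcription start are shown for *Igf2* and *Igfbp2*, which had the largest rises of the 10 genes in choroid plexus and leptomeningeal spots and varied together, and for *Igfbp6*, which had another distribution. They were taken from RefSeq (GRCm38.p6, the assembly called mm10 in the authors' processing notes), where all 10 genes matched by symbol with 14 starts. *Igf2* lies on chromosome 7 (142650768 to 142666816), *Igfbp2* on chromosome 1 (72824480 to 72852474) and *Igfbp6* on chromosome 15 (102144186 to 102149512). Each sequence is written 5′ to 3′ on the strand of the gene, with GC boxes (GGGCGG or its complement CCGCCC) and CCAAT boxes (CCAAT or its complement ATTGG) in capitals.
*Igf2*, start 1 (chr7:142666817-142666936, - strand): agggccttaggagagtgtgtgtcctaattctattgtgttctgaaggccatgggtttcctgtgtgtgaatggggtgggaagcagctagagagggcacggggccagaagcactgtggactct
*Igf2*, start 2 (chr7:142661272-142661391, - strand): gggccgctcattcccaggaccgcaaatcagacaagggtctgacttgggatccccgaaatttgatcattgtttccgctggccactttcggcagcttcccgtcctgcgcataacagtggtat
*Igf2*, start 3 (chr7:142658805-142658924, - strand): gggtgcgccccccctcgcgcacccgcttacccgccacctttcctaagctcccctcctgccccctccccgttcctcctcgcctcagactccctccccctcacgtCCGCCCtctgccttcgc
*Igf2*, start 4 (chr7:142657497-142657616, - strand): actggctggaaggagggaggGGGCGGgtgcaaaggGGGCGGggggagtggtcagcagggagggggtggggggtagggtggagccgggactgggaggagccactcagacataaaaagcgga
*Igfbp2*, start 1 (chr1:72824360-72824479, + strand): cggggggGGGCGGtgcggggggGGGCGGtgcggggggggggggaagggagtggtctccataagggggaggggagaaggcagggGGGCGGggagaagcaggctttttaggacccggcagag
*Igfbp2*, start 2 (chr1:72825267-72825386, + strand): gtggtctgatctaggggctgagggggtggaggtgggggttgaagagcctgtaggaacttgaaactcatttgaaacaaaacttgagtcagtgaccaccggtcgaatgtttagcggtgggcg
*Igfbp6* (chr15:102144066-102144185, + strand): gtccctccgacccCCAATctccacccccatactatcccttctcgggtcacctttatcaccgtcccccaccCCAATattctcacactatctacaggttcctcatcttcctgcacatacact
GC boxes stood before starts 3 and 4 of *Igf2* and before start 1 of *Igfbp2*, and none stood before the other printed starts. The CCAAT box occurred 2 times before the start of *Igfbp6* and in none of the other printed sequences. Of 32851 promoter windows of the same length, 26.5% held a GC box, 21.3% a CCAAT box and 6.34% the TATA box TATAAA, which was in none of the 7 printed sequences. The counts do not tell which start was used.

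The 4 sections held 1537, 2358, 2294 and 1431 spots with at least 500 UMIs (unique molecular identifiers, each counting 1 captured mRNA molecule), and the median per spot ranged from 8862.5 to 15296.5 UMIs, lowest in section 3. Barcodes name positions on the slide, so that 418 of them occurred in all 4 sections, 1302 in 3, 727 in 2 and 636 in only 1. *Nf1* itself was counted at 5.08 to 7.84 CPM (counts per 1000000 UMIs) in the sections. Spots were placed in classes by marker genes that include none of the 10 genes. Choroid plexus-marker spots held at least 3 of 10 epithelial markers, leptomeningeal-marker spots were the top 5% of a section for 10 meningeal fibroblast markers, endothelial-marker and oligodendrocyte-marker spots were the top 10% for their lists, neuronal-marker spots were the top 40%, and each spot was given to the first class in this order whose rule it met.

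Choroid plexus-marker spots numbered 189, 4, 7 and 76 in sections 1 to 4. Classes under 20 spots were left out, so choroid plexus results rest on sections 1 and 4. The choroid plexus rule counted detected markers without regard to depth. The median per spot of this class was 15886 UMIs in section 1 and 6566 UMIs in section 4, and the part of this difference was not tested. The leptomeningeal class held 45, 118, 115 and 48 spots, the endothelial class 131, 187, 193 and 125, the oligodendrocyte class 121, 205, 195 and 103, and the neuronal class 510, 831, 825 and 513. For the choroid plexus, leptomeningeal, endothelial and oligodendrocyte lists, the lowest section of the class was above the highest section of every other class, and all 10 choroid plexus and all 10 leptomeningeal markers were detected in each sum of their own class. The 10 choroid plexus markers summed to 779 and 1611 CPM in their class and to 8.1 to 49.8 CPM in neuronal-marker spots, and the 10 leptomeningeal markers to 388 to 875 CPM in their class and to 11.5 to 23.9 CPM in neuronal-marker spots. The classes were not pure. Leptomeningeal-marker spots were also higher than neuronal-marker spots in mural cell markers (425 to 994 against 98.4 to 151 CPM), endothelial markers (383 to 513 against 165 to 233 CPM) border macrophage markers (83.5 to 134 against 5.09 to 7.93 CPM, all 6 detected), microglial markers (649 to 940.02 against 402 to 441 CPM), astrocyte markers (2777 to 4033 against 2146 to 2497 CPM) and ependymal markers (47.4 to 274 against 21.3 to 39.9 CPM). The 10 neuronal markers summed to 7592 to 9916 CPM in their own class and to 3059 to 7632 CPM in the other classes. The endothelial class had the highest of these values, and its range overlapped that of the neuronal class, although neuronal-marker spots were higher in each section. Choroid plexus-marker spots also held more ependymal markers (433 and 624 CPM), leptomeningeal markers (89.6 and 175 CPM) and oligodendrocyte markers (3813 to 7778 against 2028 to 2934 CPM in neuronal-marker spots), and 16 of them in section 1 and 23 in section 4 met the oligodendrocyte rule. The 8 markers of striatal projection neurons summed to only 395 to 977 CPM in neuronal-marker spots. Choroid plexus (1612 to 1707 CPM), endothelial (1428 to 2329 CPM) and unclassed spots (3251 to 3545 CPM) held more. The leptomeningeal (562 to 1305 CPM) and oligodendrocyte ranges (723 to 2585 CPM) overlapped that of neuronal-marker spots. The part of these admixtures and of brain region in the results was not tested. In a spot, fewer cells of a type and less RNA per cell cannot be told apart.

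*Igf2* was concentrated in the leptomeningeal and choroid plexus spots. In leptomeningeal-marker spots it was counted at 245, 185, 88.1 and 91.97 CPM in sections 1 to 4, and in the neuronal-marker spots of the same sections at 12.3, 8.06, 4.98 and 6.09 CPM. Every section had more *Igf2* in its leptomeningeal-marker spots, by 19.98, 22.9, 17.7 and 15.1 times. The log2 fold change was 4.39 ± 0.32 (SE, n = 4 sections; adjusted p = 2.69e-11 edgeR quasi-likelihood test, adjusted by Benjamini-Hochberg over 12840 genes). These spots held 11.9%, 45.9%, 35% and 9.00% of a section's *Igf2* UMIs but only 1.72%, 4.11%, 3.97% and 2.09% of all UMIs.

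In choroid plexus-marker spots, *Igf2* was counted at 125 CPM in section 1 and 322 CPM in section 4, which were 10.2 and 52.9 times the neuronal levels of those sections. Against neuronal-marker spots the log2 fold change was 4.31 ± 0.35 (n = 2 sections for the choroid plexus class, adjusted p = 3.65e-10), and it was 5.65 without section 1 and 3.32 without section 4. As for all genes in this class, the SE and p rest on a spread shared by all 6 classes of the fit. They do not measure the difference between the 2 choroid plexus sections, which was larger here. About as much of the sections' *Igf2* lay in these spots in both, 50.1% of the UMIs in section 1 and 46.5% in section 4, where the spots held 14.2% and 3.08% of all UMIs. Endothelial-marker spots had 18.4, 14.1, 8.38 and 13.5 CPM, which were 1.502, 1.74, 1.68 and 2.22 times the neuronal values of the same sections. The difference had the same direction in 4 of 4 sections but was not called (0.81 ± 0.44, adjusted p = 0.237), although it was without section 4 (0.72, adjusted p = 0.0213), with stricter class thresholds (1.38, adjusted p = 0.0139) and with no filter on low counts (0.80, adjusted p = 0.000269). Against all other spots, which hold the leptomeningeal and choroid plexus classes, it was -0.61 (adjusted p = 0.00268). With mural in place of endothelial markers, *Igf2* was called higher than in neuronal-marker spots (1.37, adjusted p = 0.0306). Oligodendrocyte-marker spots ranged widely, with 19.4, 5.78, 12.9 and 59.0 CPM, and section 4, the highest, also had the most choroid plexus marker UMIs in that class (139 CPM).

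**Figure D1:**
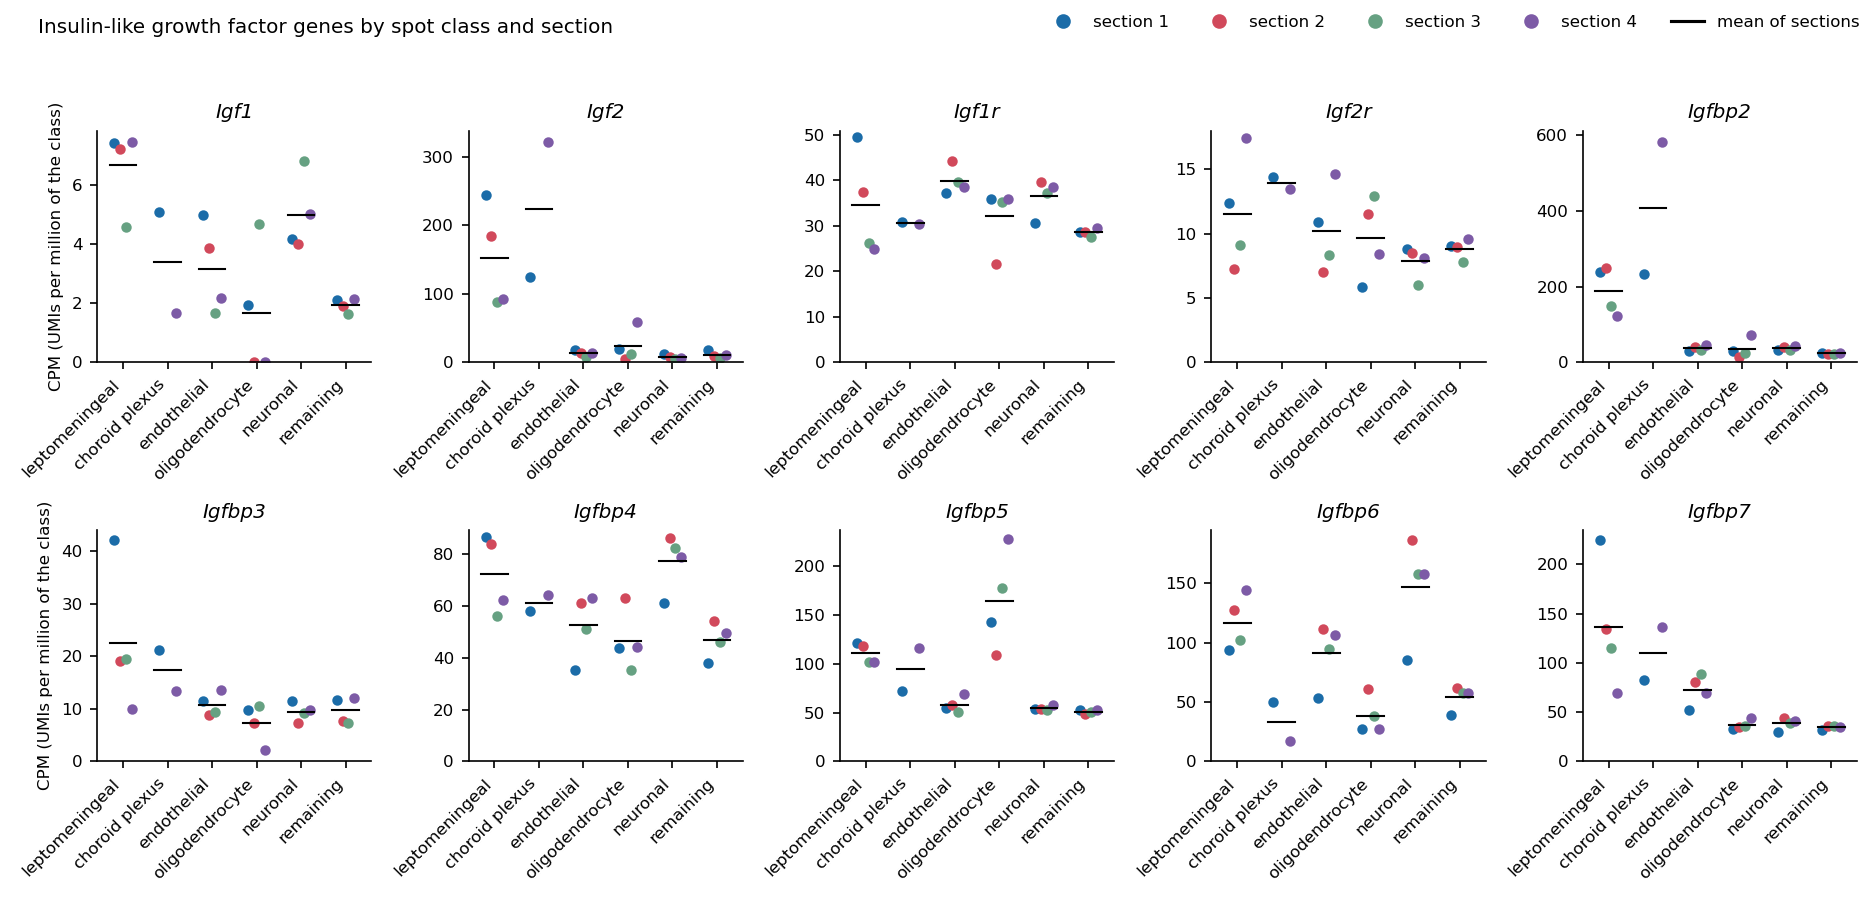
Levels of the 10 genes in 6 spot classes, in CPM (linear axes from 0, with a scale of its own for each gene). Points are sections, lines are means over sections, and choroid plexus spots are shown for sections 1 and 4 only. *Igf2* reached 322 CPM in choroid plexus spots and 245 CPM in leptomeningeal spots and stayed under 60 CPM in every other class. *Igfbp5* had its highest class mean in oligodendrocyte spots and *Igfbp6* in neuronal spots, each with a range that overlapped the leptomeningeal one.

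Which of the 2 classes held more *Igf2* differed between the sections. In section 1, leptomeningeal-marker spots were higher (245 CPM, exact 95% Poisson interval 199 to 298, against 125, 113 to 137), and in section 4, choroid plexus-marker spots were (322, 278 to 371, against 91.97, 64.8 to 127). The intervals do not overlap in either section, and they cover counting error only. The fit over all sections gave a log2 fold change of 0.08 ± 0.35 for leptomeningeal-marker against choroid plexus-marker spots (adjusted p = 0.953), which was 1.12 without section 4 (adjusted p = 7.52e-05) and -1.21 without section 1 (adjusted p = 0.0265). Over the 2 sections the order of the classes for *Igf2* was therefore not settled. Of the choroid plexus-marker spots, 32 of 189 in section 1 and 24 of 76 in section 4 also met the leptomeningeal rule. They were given to the choroid plexus class because its rule came first, and their part in this order was not tested.

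*Igfbp2*, a binding protein with a preference for IGF2, followed *Igf2*. It was counted at 237, 249, 148 and 122 CPM in leptomeningeal-marker spots, at 233 and 582 CPM in the choroid plexus-marker spots of sections 1 and 4, and at 33.4, 39.99, 32.5 and 42.1 CPM in neuronal-marker spots. The lowest leptomeningeal value was above the highest value of the endothelial, neuronal, oligodendrocyte and remaining spots, the last being those in no class. The log2 fold changes against neuronal-marker spots were 2.47 ± 0.22 in leptomeningeal spots (adjusted p = 1.33e-09) and 3.27 ± 0.23 in choroid plexus spots (adjusted p = 3.65e-11). Neuronal-marker spots held 19.7% to 43.5% of a section's *Igfbp2* UMIs and 12.7% to 22.3% of its *Igf2* UMIs, beside 36.9% to 44.7% of all UMIs.

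*Igfbp7*, a secreted protein of vessel walls that binds the ligands weakly, was raised in all 3 classes of meninges, choroid plexus and vessels. It was counted at 225, 134, 116 and 69.6 CPM in leptomeningeal spots, 83.0 and 137 CPM in choroid plexus spots, 51.7, 80.9, 88.9 and 69.9 CPM in endothelial spots and 30.2, 44.1, 39.5 and 41.4 CPM in neuronal spots. No endothelial value fell into the neuronal range, while the leptomeningeal and endothelial ranges overlapped. Against neuronal-marker spots, the log2 fold change was 1.80 ± 0.18 in leptomeningeal spots (adjusted p = 1.7e-08), 1.48 ± 0.22 in choroid plexus spots (adjusted p = 1.15e-05) and 0.92 ± 0.16 in endothelial spots (adjusted p = 0.000239). With mural in place of endothelial markers, the last value was 1.46 (adjusted p = 2.16e-07).

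In choroid plexus-marker spots, *Igf2*, *Igfbp2* and *Igfbp7* were higher where several class rules were met. Of the choroid plexus-marker spots, 56 of 189 in section 1 and 46 of 76 in section 4 also met the leptomeningeal, endothelial or oligodendrocyte rule. In those of section 1, *Igf2* was at 312 CPM against 57.1 CPM in the 133 spots that met the choroid plexus rule alone, and *Igfbp2* was at 591 against 104 CPM. In section 4 the values were 526 against 121 CPM for *Igf2* and 829 against 338 CPM for *Igfbp2*. In spots with 1 rule, *Igfbp7* was at 42.8 CPM in section 1 and 50.3 CPM in section 4, against 194 and 224 CPM in the others. Without spots of several rules, the choroid plexus log2 fold change was 2.68 for *Igf2* (adjusted p = 1.79e-06), 2.02 for *Igfbp2* (adjusted p = 8.15e-06) and 0.36 for *Igfbp7* (adjusted p = 0.24).

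The leptomeningeal list held 1 gene, *Slc13a4*, that was also counted in choroid plexus-marker spots (40.4 and 105 CPM, against 44.6 to 126 CPM in leptomeningeal-marker spots), so that a choroid plexus spot could meet the leptomeningeal rule through it. Each of the other 9 markers was lower in both choroid plexus sums than in all 4 leptomeningeal sums. The choroid plexus spots that met the leptomeningeal rule numbered 32 and 24 with all 10 markers and 13 and 15 without *Slc13a4*. In an alternative chosen after seeing the data, which left out both *Slc13a4* and spots of several rules, the choroid plexus log2 fold changes were 3.85 for *Igf2*, 2.94 for *Igfbp2* and 1.19 for *Igfbp7*, all called.

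**Figure D2:**
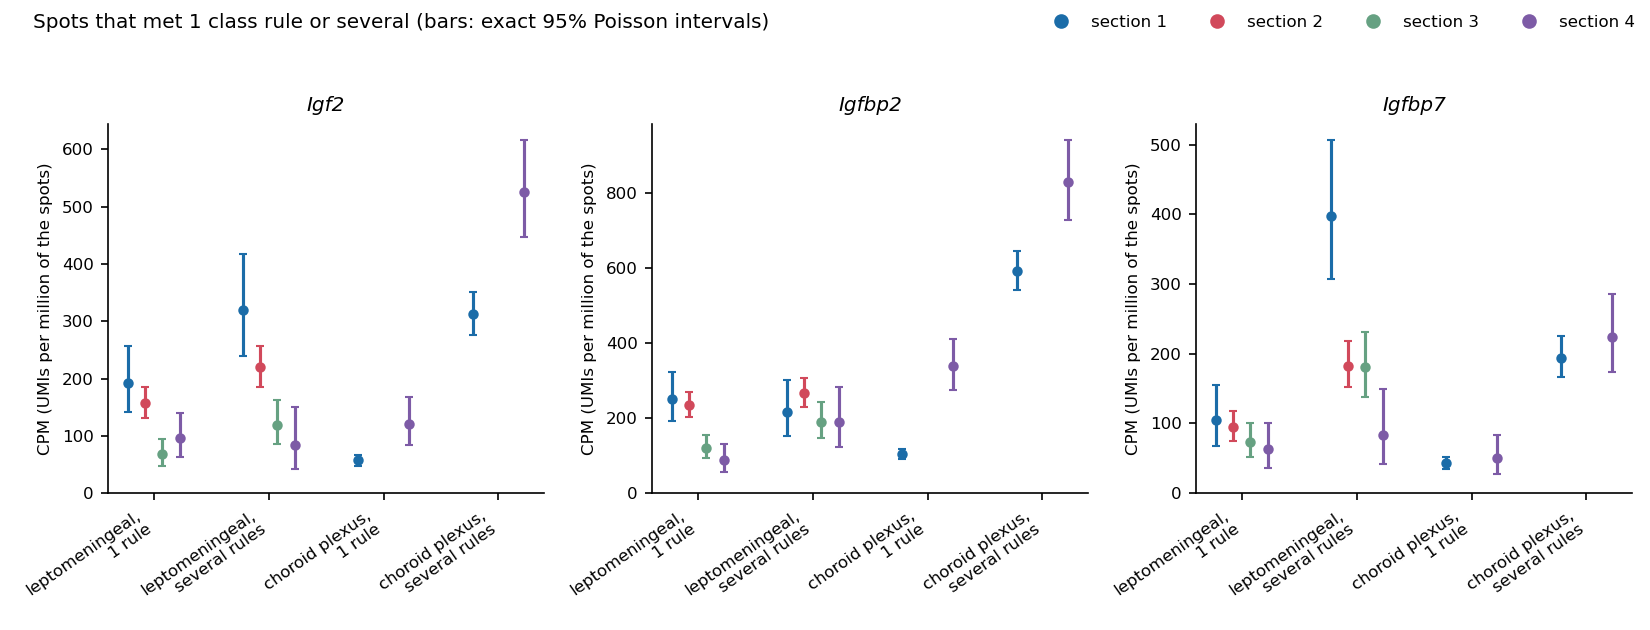
*Igf2*, *Igfbp2* and *Igfbp7* in leptomeningeal and choroid plexus spots that met 1 class rule or several, in CPM (linear axis from 0). Points are sections and bars are exact 95% Poisson intervals, which cover counting error only. In choroid plexus spots the values with several rules lie above those with 1 rule in both sections, as for *Igf2* with 312 against 57.1 CPM in section 1.

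*Igfbp3*, the main carrier of the ligands in blood serum, was sparse, with 1021 UMIs in all. It was counted at 42.0, 19.1, 19.5 and 9.94 CPM in leptomeningeal spots, 21.3 and 13.5 CPM in choroid plexus spots and 11.6, 7.35, 9.25 and 9.72 CPM in neuronal spots. Sections 1, 2 and 3 were higher in leptomeningeal than in neuronal spots and section 4, with 4 leptomeningeal UMIs, was level. Against neuronal-marker spots it rose by a log2 fold change of 1.32 ± 0.24 in leptomeningeal spots (adjusted p = 0.000156) and 0.80 ± 0.25 in choroid plexus spots (adjusted p = 0.0223), and the second was lost without section 1 (adjusted p = 0.628), section 2 (adjusted p = 0.0525) or spots of several rules (0.43, adjusted p = 0.457).

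*Igfbp5*, which binds extracellular matrix as well as the ligands, was the only one of the 10 genes called higher in oligodendrocyte-marker than in neuronal-marker spots. It was counted there at 142, 108, 177 and 227 CPM, against 53.9, 53.9, 52.7 and 57.5 CPM in neuronal spots, 2.01 to 3.96 times as much. The neuronal values were nearly the same in all 4 sections, while the oligodendrocyte values were all higher and spread more widely. Its log2 fold change was 1.59 ± 0.13 (adjusted p = 7.57e-11). Leptomeningeal spots were next with 121, 118, 102 and 102 CPM (1.11 ± 0.14, adjusted p = 1.14e-06), followed by choroid plexus spots with 71.9 and 116 CPM (0.62 ± 0.17, adjusted p = 0.00787), a value that was 1.08 without section 1 and lost the call without section 4 (0.39, adjusted p = 0.0974) or without spots of several rules (0.37, adjusted p = 0.275).

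*Igfbp6*, which binds IGF2 far more tightly than IGF1, had its highest class mean in neuronal spots, followed by leptomeningeal spots. Its level was 85.3, 186, 158 and 158 CPM in neuronal spots, 93.96, 128, 102 and 144 CPM in leptomeningeal spots, 53.2, 111, 95.01 and 107 CPM in endothelial spots, 27.2, 60.7, 38.7 and 27.4 CPM in oligodendrocyte spots, and 49.7 and 16.9 CPM in choroid plexus spots. Section 1 was the lowest in neuronal, leptomeningeal, endothelial and remaining spots, and the neuronal and leptomeningeal ranges overlapped. Against neuronal-marker spots, its log2 fold change was -1.74 ± 0.18 in oligodendrocyte spots (adjusted p = 1.48e-08), -1.30 ± 0.21 in choroid plexus spots (adjusted p = 3.83e-05) and -0.66 ± 0.13 in endothelial spots (adjusted p = 0.000802). In leptomeningeal spots it was -0.33 ± 0.15 and was not called (adjusted p = 0.107). The choroid plexus value was -3.15 without section 1 and -0.91 without section 4.

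*Igfbp4*, a binding protein that the protease pregnancy-associated plasma protein A cleaves to release the ligand, varied less. Its level was 61.0, 86.0, 82.4 and 78.6 CPM in neuronal spots, 35.3, 60.8, 50.9 and 62.9 CPM in endothelial spots and 43.8, 62.9, 35.2 and 44.2 CPM in oligodendrocyte spots. In each section the endothelial and oligodendrocyte spots were lower than the neuronal spots, although the ranges over all sections overlapped. The log2 fold changes were -0.54 ± 0.10 in endothelial (adjusted p = 0.000782) and -0.60 ± 0.14 in oligodendrocyte spots (adjusted p = 0.000795). Without the section as a block, the endothelial values of *Igfbp4* and *Igfbp6* missed the threshold (adjusted p 0.0545 and 0.101). Leptomeningeal and choroid plexus spots had values of 56.1 to 86.5 CPM and were not called.

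*Igf1*, the ligand made by scattered neurons and by microglia in the adult brain, was the sparsest of the 10 genes, with 359 UMIs over the 4 sections. It was counted at 4.16, 3.999, 6.81 and 5.03 CPM in neuronal spots and at 7.42, 7.24, 4.58 and 7.46 CPM in leptomeningeal spots, the latter from only 21 UMIs. In oligodendrocyte spots it was at 1.95 and 4.69 CPM in sections 1 and 3 and at 0 UMIs in sections 2 and 4, which allows up to 2.17 and 6.32 CPM there. The oligodendrocyte log2 fold change of -1.52 ± 0.60 passed the threshold by little (adjusted p = 0.0455) and lost it without section 1, 2 or 4 (adjusted p 0.0811, 0.267 and 0.115), and was -2.52 without section 3. The remaining spots, which entered no comparison, had 2.11, 1.91, 1.63 and 2.16 CPM, below the neuronal value in each section. The leptomeningeal, choroid plexus and endothelial differences from neuronal spots were not called.

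*Igf1r* differed little between the classes that were compared. It was counted at 30.6, 39.5, 37.1 and 38.6 CPM in neuronal spots, 37.3, 44.3, 39.7 and 38.5 CPM in endothelial spots and 49.5, 37.5, 26.3 and 24.9 CPM in leptomeningeal spots. Class means lay between 28.7 and 39.9 CPM, and the log2 fold changes against neuronal-marker spots were between -0.18 and 0.15, with none called. The remaining spots, which entered no comparison, were lowest at 27.6 to 29.6 CPM, below all neuronal and endothelial values. *Igf2r* was at 14.4 and 13.5 CPM in choroid plexus spots and at 8.78, 8.51, 6.00 and 8.08 CPM in neuronal spots. Both choroid plexus values were above all neuronal values, and the log2 fold change was 0.79 ± 0.26 (adjusted p = 0.029). That call was lost without section 1, 3 or 4 (adjusted p 0.43, 0.0595 and 0.0737) and without spots of several rules (0.36, adjusted p = 0.559).

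Taking the order of class means over the sections, *Igf2* and *Igfbp2* went from choroid plexus to leptomeningeal spots, whose ranges overlapped, and from there in a step with no overlap to the other 4 classes. Neighbours among these 4 overlapped, although for *Igfbp2* the remaining spots (21.3 to 26.1 CPM) lay below all endothelial and neuronal values. *Igfbp7* and *Igfbp3* began with leptomeningeal, choroid plexus and endothelial spots, and for *Igfbp7* alone the endothelial range lay apart from the next class. *Igfbp5* went from oligodendrocyte over leptomeningeal to choroid plexus spots, which overlapped in turn and lay apart from the endothelial spots. *Igfbp6* and *Igfbp4* began with neuronal spots, and all neighbours in their orders overlapped.

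Counted over the 10 genes, all of which passed the filter on low counts, 5 were higher and none lower in leptomeningeal-marker than in neuronal-marker spots, where 14.5% of all genes tested were higher and 15% lower (29.5% in all), and the median log2 fold change was 0.79 for the 10 genes and -0.04 for all. By DESeq2 the numbers over all genes were 2150 higher and 1454 lower, against 1866 and 1928 here. In choroid plexus-marker spots 6 were higher and 1 lower (all genes 12.6% and 11%, 23.6% in all, medians 0.70 and -0.01). In endothelial-marker spots 1 was higher and 2 lower (all genes 7.61% and 7.38%, 15% in all, medians 0.13 and -0.02), and in oligodendrocyte-marker spots 1 was higher and 3 lower (all genes 18.7% and 19.2%, 37.9% in all, medians -0.15 and -0.0048). The 4 comparisons share the neuronal-marker spots.

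**Figure D3:**
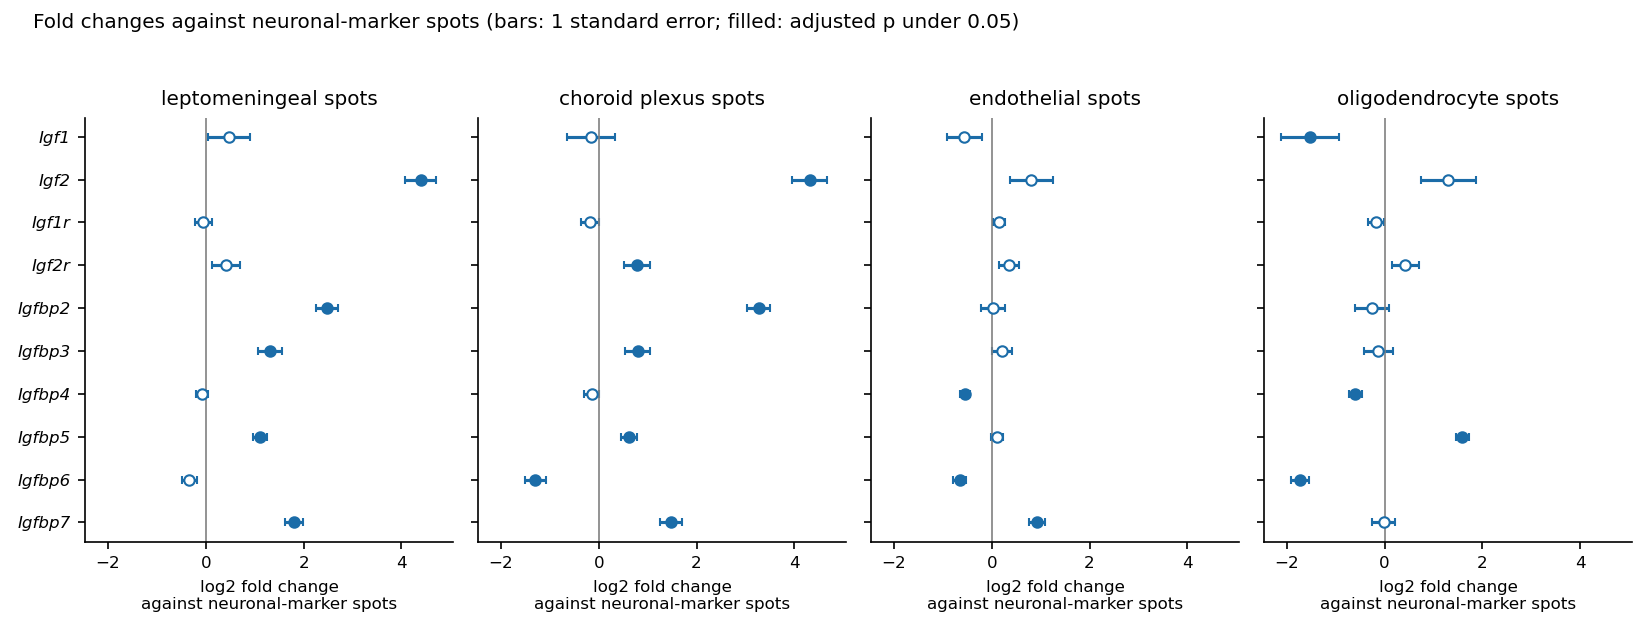
Log2 fold changes of the 10 genes against neuronal-marker spots in 4 spot classes. Bars are 1 standard error and filled points have an adjusted p under 0.05. *Igf2* stood at 4.39 in leptomeningeal and 4.31 in choroid plexus spots, whereas *Igfbp6* was negative in all 4 panels and not called in the leptomeningeal one.

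Set directly against endothelial-marker spots, leptomeningeal-marker spots were higher in 5 of the 10 genes and lower in none (all genes 5.33% higher and 2.83% lower, 8.16% in all, medians 0.94 and -0.02). The log2 fold change was 3.58 ± 0.37 for *Igf2* (adjusted p = 1.18e-07), 2.44 ± 0.26 for *Igfbp2* (adjusted p = 1.52e-07), 1.11 ± 0.27 for *Igfbp3* (adjusted p = 0.0101), 1.00 ± 0.16 for *Igfbp5* (adjusted p = 9.5e-05) and 0.88 ± 0.19 for *Igfbp7* (adjusted p = 0.00367). *Igf2*, *Igfbp2* and *Igfbp5* were thus higher in leptomeningeal-marker than in endothelial-marker spots. *Igfbp7* was not called without spots of several rules (0.24, adjusted p = 0.481) or without section 2 (0.97, adjusted p = 0.0641), and was 0.57 without section 1. *Igfbp3* was not called without section 1 (0.88, adjusted p = 0.111) or section 2 (1.09, adjusted p = 0.158). The 2 classes were unlike in mural markers (425 to 994 against 206 to 331 CPM), and the part of this difference was not tested. Against choroid plexus-marker spots, only *Igfbp6* was called, higher in leptomeningeal spots (0.97 ± 0.25, adjusted p = 0.0153; all genes 3.57% higher and 2.95% lower, 6.53% in all), and this was lost without section 4 (0.51, adjusted p = 0.127) and was 2.75 without section 1. *Igfbp2* was -0.79 ± 0.26 (adjusted p = 0.0687), with -1.52 without section 1 and -0.05 without section 4.

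The binding proteins differed between spots of the neuronal regions. Spots outside the choroid plexus and leptomeningeal classes were called upper-layer cortex (124, 48 and 62 spots in sections 2 to 4), deep-layer cortex (34, 26, 28 and 21 spots) or striatal (262, 574, 331 and 223 spots) by lists of 6, 6 and 8 regional markers. Section 1 had 7 upper-layer spots, and hippocampal and *Slc17a6* subcortical spots numbered at most 2 and 5 in a section, so these were left out. Of the striatal spots, 0 to 17 in a section belonged to the neuronal-marker class. The 10 neuronal markers summed to 4341 to 5179 CPM in striatal, 8220 to 8944 CPM in deep-layer and 8861 to 10246 CPM in upper-layer spots. The part of this difference in the regional results was not tested. Of the 10 genes, *Igf1* did not pass the filter on low counts here, and 9 were tested.

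*Igfbp6* was counted at 280.5, 250.4 and 219.7 CPM in the upper-layer spots of sections 2 to 4, at 85.5, 118, 137 and 95.4 CPM in the deep-layer spots of sections 1 to 4, and at 48.0, 59.4, 57.2 and 48.5 CPM in the striatal spots. The 3 regions did not overlap. The log2 fold change of upper-layer spots against the mean of the other 2 regions was 1.61 ± 0.09 (adjusted p = 7.66e-18), and that of striatal spots was -1.44 ± 0.09 (adjusted p = 5.25e-17). *Igfbp2* was at 60.8, 72.9 and 69.9 CPM in upper-layer spots, 20.5, 13.8, 5.96 and 13.6 CPM in deep-layer spots and 19.2, 12.004, 9.32 and 17.9 CPM in striatal spots. It stood out in the upper layers, with a log2 fold change of 2.33 ± 0.19 (adjusted p = 6.59e-13), while *Igf2* was at 7.04, 4.13 and 5.38 CPM in the same spots (-0.19 ± 0.38, adjusted p = 0.79). The 10 leptomeningeal markers summed to 16.5 to 25.9 CPM in upper-layer, 3.41 to 17.1 CPM in deep-layer and 10.6 to 17.4 CPM in striatal spots. The part of this difference in the *Igfbp2* values was not tested.

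*Igfbp4* and *Igfbp5* were highest in deep layers. *Igfbp4* was counted there at 116, 100, 122 and 106 CPM, against 82.5, 109 and 43.0 CPM in upper-layer spots and 33.2, 49.8, 38.1 and 48.2 CPM in striatal spots. *Igfbp5* was at 90.7, 72.7, 83.5 and 57.9 CPM in deep-layer spots, at 47.0, 38.5 and 44.6 CPM in upper-layer spots and at 37.5 to 41.6 CPM in striatal spots. All deep-layer values of *Igfbp5* lay above those of the other regions, and those of *Igfbp4* overlapped with the upper-layer value of section 3 only. The deep-layer log2 fold changes were 0.97 ± 0.18 for *Igfbp4* (adjusted p = 0.000116) and 0.78 ± 0.16 for *Igfbp5* (adjusted p = 0.000327), while the oligodendrocyte markers summed to 4113 to 4970 CPM in deep-layer, 1255 to 1348 CPM in upper-layer and 2731 to 3623 CPM in striatal spots. The part of that difference in the *Igfbp5* values was not tested.

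Over the 9 genes tested, upper-layer spots were higher in 3 and lower in none (*Igfbp2*, *Igfbp6* and, by 0.64 ± 0.16, *Igfbp7*, adjusted p = 0.00264), where 12.1% of all genes were higher and 10.3% lower (22.4% in all). Deep-layer spots were higher in 3 (*Igfbp3*, *Igfbp4* and *Igfbp5*) and lower in *Igfbp2* (-1.36 ± 0.30, adjusted p = 0.000896; all genes 8.42% higher and 6.11% lower, 14.5% in all). The *Igfbp3* value of 1.22 ± 0.36 (adjusted p = 0.0156) came from 29 deep-layer UMIs and was lost without section 2 or 3. Striatal spots were lower in 6 and higher in none (all genes 19.5% higher and 19.2% lower, 38.7% in all, medians -0.42 and 0.02), the 6 being *Igfbp2*, *Igfbp3*, *Igfbp4*, *Igfbp5*, *Igfbp6* and *Igf1r*. By DESeq2 and without section 2 the number was 4, with *Igfbp3* and *Igf1r* lost, and *Igfbp3* was also lost without the block and without section 3 or 4. The share of all genes called higher moved with the scaling. With total-UMI scaling in place of TMM, 1179 genes were higher and 3142 lower in striatal spots, against 2074 and 2038, with a median over all genes of -0.14, 1224 and 433 in deep-layer spots against 895 and 650, with a median of 0.10, and 1538 and 834 in upper-layer spots against 1282 and 1096. The members' calls numbered the same under both.

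**Figure D4:**
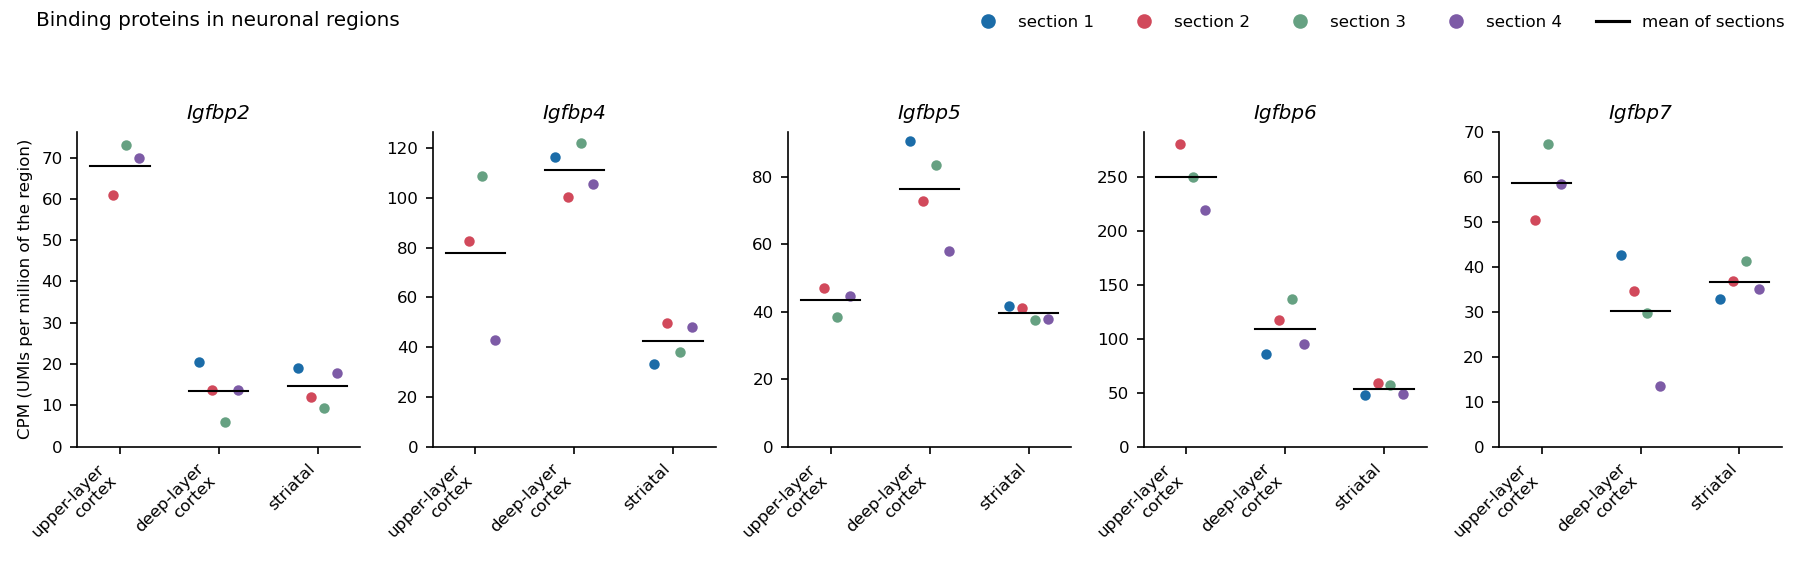
Binding proteins in spots of 3 neuronal regions, in CPM (linear axes from 0). Points are sections and lines are means, and section 1 has no upper-layer point because it held only 7 such spots. *Igfbp6* falls from upper-layer over deep-layer to striatal spots, *Igfbp2* is high only in the upper-layer spots, and *Igfbp5* is highest in the deep-layer spots.

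The OPC-marker-high spots, the 10% of each section with the largest excess of 8 markers of oligodendrocyte progenitor cells, differed little in these genes. *Igfbp6* was counted there at 32.8, 90.0, 75.4 and 74.6 CPM, against 61.9, 123, 109 and 110 CPM in the other spots. It was lower in 4 of 4 sections, with a log2 fold change of -0.57 ± 0.07 (adjusted p = 2.2e-06 over 14267 genes), and was the only one of the 10 genes called (all genes 2.79% higher and 3.08% lower, 5.87% in all). Without the section as a block, it was -0.56 with an adjusted p of 0.767. In each section these spots also had fewer neuronal marker UMIs (5254 to 6214 against 5689 to 7540 CPM), fewer upper-layer marker UMIs (202 to 280.1 against 217 to 387 CPM) and more oligodendrocyte marker UMIs (3354 to 5935 against 2611 to 4137 CPM), and their part in the *Igfbp6* result was not tested. *Igf2* was at 24.9, 28.9, 15.1 and 26.4 CPM in these spots and at 36.4, 15.4, 9.49 and 20.8 CPM in the others, higher in sections 2 to 4 and lower in section 1 (0.30 ± 0.16, adjusted p = 0.338). It was called without choroid plexus-marker spots (0.54, adjusted p = 0.0248), without section 1 (0.69, adjusted p = 0.00108; -0.01 without section 2) and with *Pdgfra* as the only marker (0.81, adjusted p = 1.16e-08), in which case the 10 leptomeningeal markers summed to 41.3 to 84.4 CPM in the chosen spots and to 24.7 to 46.8 CPM in the others.

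Spot by spot, *Igf2* and *Igfbp2* varied together within the classes where both were high. The correlation of depth-normalized log2 counts over spots was 0.75 (n = 189) and 0.60 (n = 76) in the choroid plexus-marker spots of sections 1 and 4, and 0.55, 0.58, 0.45 and 0.27 in the leptomeningeal-marker spots (n = 45, 118, 115 and 48). In neuronal-marker spots it was between 0.00 and 0.06, and in oligodendrocyte-marker spots 0.25, 0.02, 0.07 and 0.57, the last in section 4 (n = 103), where that class held the most choroid plexus marker UMIs. Other pairs varied together too. In the choroid plexus-marker spots of sections 1 and 4, *Igfbp7* had 0.63 and 0.46 with *Igfbp2*, and 0.49 and 0.53 with *Igf2*. In leptomeningeal-marker spots, *Igfbp7* had 0.28, 0.27 and 0.27 with *Igf2* in sections 1 to 3, and 0.57 with *Igfbp6* in section 4. The spots of a section share a library, and depth per spot enters both genes of a pair. The part of spots that met several class rules in these correlations was not tested. Over the 22 sums of a class in a section, the genes most like *Igf2* were *Prelp* (Pearson r = 0.97), *Pcolce* (0.95) and *B4galt1* (0.94), among 12930 genes with at least 200 UMIs. The gene most like *Igfbp2* was *Igf2* (0.93), before *Myof* and *Crtap* (both 0.92). *Igfbp5* was most like *Scarb2* (0.96), *Gsn* (0.95) and *Scd1* (0.95), *Igfbp7* like *Bcam* (0.93), *Islr* and *Mgp* (both 0.91), and *Igfbp6* like *Cacnb3*, *Dlk2* and *Ntm* (all 0.93). The remaining 5 genes had correlations of at most 0.91.

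Of 34 other genes of the pathway (the insulin receptor, adaptors, the PI3K-AKT branch, binding protein proteases and their partners), 23 passed the filter in the class comparisons. In leptomeningeal-marker against neuronal-marker spots, 4 were higher and 2 lower, in choroid plexus-marker spots 4 were higher and none lower, and in endothelial-marker spots 4 were higher and 1 lower, with medians between -0.05 and -0.04. Among all genes, 14.5% were higher and 15% lower in the first of these comparisons, 12.6% and 11% in the second, and 7.61% and 7.38% in the third. *Foxo1*, a transcription factor that AKT holds outside the nucleus, was called higher in all 3 (log2 fold changes 1.12, 1.37 and 1.10). Its level was 12.4 to 52.6 CPM in leptomeningeal, 35.4 to 43.1 CPM in choroid plexus, 17.9 to 42.8 CPM in endothelial and 7.61 to 21.6 CPM in neuronal spots. It was highest in the remaining spots, at 37.0 to 65.3 CPM. *Gab1*, a docking adaptor of receptor kinases, was also called higher in all 3 (0.78, 1.05 and 0.76) and was highest in oligodendrocyte spots, at 52.1 to 109.5 CPM. *Shc1*, an adaptor that links receptors to RAS, was higher in leptomeningeal spots (0.99 ± 0.28, adjusted p = 0.00804). *Grb14*, an inhibitory adaptor of the insulin receptor, was higher in endothelial spots (0.56 ± 0.16, adjusted p = 0.0157). It was also higher in choroid plexus and oligodendrocyte spots (145 to 374 CPM in the last, against 25.4 to 44.96 CPM in neuronal spots). *Igfbpl1*, a relative of the binding proteins, was higher in choroid plexus spots (3.14 ± 0.50, adjusted p = 2.71e-05), where it was counted at only 8.43 to 15.9 CPM. It was called higher in oligodendrocyte spots as well. Against neuronal-marker spots, oligodendrocyte-marker spots were higher in 5 and lower in 4 of the 23 genes (all genes 18.7% and 19.2%). Leptomeningeal-marker spots were higher in 1 than endothelial-marker spots (all genes 5.33% higher), and higher in 1 and lower in 1 than choroid plexus-marker spots (3.57% and 2.95%). In OPC-marker-high spots, 2 of 24 were higher (2.79%). Of 20 tested in the regions, 3 were higher and 3 lower in upper-layer spots (12.1% and 10.3%), 1 higher and 4 lower in deep-layer spots (8.42% and 6.11%), and 4 higher and 5 lower in striatal spots (19.5% and 19.2%). *Foxo1* and *Gab1* were among the 4 higher in striatal spots, and the part of region in their class values was not tested.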

How the data were processed

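Spatial gene expression was measured with Visium in 4 brain sections of Nf1+/- mice, which form 1 group. The authors deposited, for each section, raw UMI counts per gene and spot made with Space Ranger 1.3.1 against mm10, with no normalization. Spot positions were not used here. Spots with at least 500 UMIs were kept (7620 of 7668), and counts were summed per section and spot class, so that 19261103 to 37001945 UMIs stood behind each section. CPM are UMIs per 1000000 of a sum, and their exact 95% Poisson intervals and the floor of 3 counts for a count of 0 cover counting error only. A spot's class score was the excess of its marker UMIs over the number its depth predicts, divided by the square root of that number. A region needed a score of at least 5 with at least 3 markers detected.

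Tests on these sums ran in edgeR 4.0.16 under R 4.3.3 (TMM scaling, low counts removed by filterByExpr, quasi-likelihood F-test with the section as blocking factor), with Benjamini-Hochberg adjustment over all genes tested and a threshold of 0.05. Sums of the same section deviated together (correlations 0.20 to 0.53 over genes). All class comparisons came from 1 fit of 6 classes, so those with missing choroid plexus sums share its spread. On simulated data for leptomeningeal against neuronal spots, 200 genes were changed by 1 on the log2 scale. Of the 12180 genes tested, 195 were changed ones. Of these, 88 were recovered, none in the wrong direction, and 5 unchanged genes were called. The simulated sections differed only in depth and random spread, without the shared deviations of the data. Named were the 10 genes, the pathway genes with the 3 largest called changes in the leptomeningeal, choroid plexus and endothelial comparisons, and the 3 genes most correlated with each of the 10. The members and lists were chosen with earlier results of these data known. Alternatives were DESeq2 1.42.0, total-UMI scaling, no filter, no block, other class thresholds, spots of 1 rule only, mural markers, all other spots as reference and each section left out. The comparisons of hippocampal and *Slc17a6* spots were not made because too few spots qualified. Figures and tables used Python 3.11.15 with numpy 2.4.6, pandas 2.3.3 and scipy 1.17.1.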

Additional observations from a re-analysis of the deposited data

Results flagged for a closer look

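Of 57 sets of 4 section values, 2 held a section further from the others than Dixon's 95% critical value allows, where chance gives about 1 in 20. *Igf1r* in oligodendrocyte-marker spots was at 21.7 CPM in section 2, against 35.2, 35.8 and 36.0 CPM in the others. *Igfbp6* in the spots of no class was at 38.9 CPM in section 1, against 57.7, 58.1 and 61.6 CPM.

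In the 7 choroid plexus-marker spots of section 3, too few to enter a comparison, *Igf2*, *Igf2r* and *Igfbp5* had Poisson intervals above the neuronal-marker level of that section. The intervals were not adjusted for the genes looked at, and the share of all genes that met this rule was not counted. *Igf2* was at 97.7 CPM (7 UMIs, exact 95% Poisson interval 39.3 to 201) against 4.98 CPM. *Igf2r* was at 55.8 CPM (4 UMIs, 15.2 to 143) against 6.00 CPM, and *Igfbp5* at 126 CPM (9 UMIs, 57.5 to 239) against 52.7 CPM.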

How the results depend on the processing

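A tally covered 41 results for single genes. These were the members called in the main fits, and the uncalled *Igf2* and *Igfbp2* values of leptomeningeal against choroid plexus spots. Only the uncalled values could gain the threshold, and gains of other uncalled members were not counted. Of the values under an alternative, 482 kept direction and side of the threshold, 51 lost the threshold, 7 gained it and 7 changed sign. All sign changes in the tally were in leptomeningeal against choroid plexus spots. *Igf2* there was -0.45 without the replicate block, -0.18 by DESeq2, -0.45 with stricter classes, -0.21 without *Slc13a4*, and -1.21 to 1.12 with a section left out (-1.21 without section 1, -0.14 without section 2), and *Igfbp2* was 0.35 without spots of several rules. The cause was not tested.

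Without the section as replicate block, the members called fell from 1 to 0 in OPC-marker-high spots (all genes from 838 to 8) and from 3 to 1 in endothelial spots (from 1925 to 535), and all genes called for leptomeningeal against endothelial spots fell from 1048 to 526. Elsewhere the block moved no count of calls by over 1.5 times.

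Members called in OPC-marker-high spots were 2 with no filter, 4 with *Pdgfra* alone, 3 and 2 for the top 20% and 5% of spots, 2 without choroid plexus spots and 1 to 3 with a section left out. All genes called there were 341 by DESeq2, 535 with *Pdgfra* alone, 379 for the top 5% and 508 to 836 with a section left out (lowest without section 2). With all other spots as reference, choroid plexus spots had 3 members called in place of 7, and all genes called in those separate fits were 704 there (3029 against neuronal-marker spots), 393 for endothelial (1925), 2334 for leptomeningeal (3794) and 3164 for oligodendrocyte spots (4863). With looser thresholds, oligodendrocyte spots had 2 members called in place of 4, and 1129 genes were called for endothelial spots and 403 for leptomeningeal against endothelial spots. With mural markers, 5 members were called in place of 3. Where no number over all genes stands beside a member count, the shift in members was not set against that over all genes.

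Without spots of several rules, 3 members were called in each of the choroid plexus, leptomeningeal against endothelial and leptomeningeal against choroid plexus comparisons, in place of 7, 5 and 1, and 1303, 416 and 344 genes, with 2024 for leptomeningeal against neuronal spots. Leaving out *Slc13a4* too, the genes called were 349 for leptomeningeal against endothelial spots (3 members), 356 against choroid plexus spots and 2063 against neuronal spots. Leptomeningeal against choroid plexus spots had 2 members called without *Slc13a4* alone, 3 with no filter and 2 with stricter classes. These shifts were not set against those over all genes. With a section left out, members called there were 1 to 3, and 3 to 6 against endothelial spots. All genes called were then 375 to 856 against choroid plexus, 260 to 1291 against endothelial and 1758 to 4022 against neuronal spots, each lowest without section 2, 635 to 2130 for endothelial spots, lowest without section 3, and 1916 to 2698 for choroid plexus spots, lowest without section 4.

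With a section left out, the mean level of *Igf2* in choroid plexus spots ran from 125 to 322 CPM. There, *Igfbp2* ran from 233 to 582 CPM, *Igfbp6* from 16.9 to 49.7 CPM and *Igf1* from 1.69 to 5.09 CPM. In oligodendrocyte spots, *Igf2* ran from 12.7 to 30.4 CPM and *Igf1* from 0.648 to 2.21 CPM. These are examples, and the other levels moved by varying amounts. A score of at least 10 for regions was not run as a comparison, since only striatal spots then remained. Depth limits *Igf1* (359 UMIs), *Igf2r* (900) and *Igfbp3* (1021) most.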
